A study of Mus musculus with 30 samples.

Results

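Neutrophils find and respond to inflamed tissue through a small set of surface receptors, and 9 genes of that set were followed in TPA-treated mouse back skin. They were Cxcr2, Csf3r and its ligand Csf3, Fpr1, Fpr2, Trem1, Clec4e, Clec4d and Itgam. Their members on the arrays were taken by gene symbol, which gave 11 probe sets of 9 genes among 45037 probe sets, with 2 probe sets each for Trem1 and Clec4e. The rule uses gene symbols and no measured value, though the 9 genes were picked with earlier results of these data known, and all 11 probe sets were among the 36029 tested after the 20% with the lowest mean were left out.

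WT and D6-deficient mice on a mixed 129 and C57BL/6 background, all females of 8 to 12 weeks, received 3 applications of 50 μM TPA, a phorbol ester that irritates skin, at intervals of 24 h on the shaved back. D6 is an atypical chemokine receptor that binds and removes inflammatory CC chemokines without signalling to leukocyte migration. Skin was taken on days 1, 2, 4 and 6 after the last application, and day 0 stands for control skin that the methods and sample descriptions call acetone-treated and the sample titles untreated. Every combination of genotype and day (10 groups) had 3 arrays that the labels call biological replicates, 30 in all, and a level is the log2 of the deposited array intensity. Whole skin was measured, so fewer cells of a type and less RNA per cell cannot be told apart. A probe set was called when its difference had an adjusted p under 0.05 and exceeded 3-fold by limma fitted to all arrays, and "rose" and "fell" are used of called differences. The day 0 arrays of a genotype are shared by its comparisons with day 0.

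CXCR2 is the receptor through which neutrophils follow the ELR-containing CXC chemokines. G-CSF, the product of Csf3, drives the production, release and survival of neutrophils through the receptor encoded by Csf3r. Formyl peptide receptors sense N-formylated peptides of bacteria and mitochondria. TREM-1 signals through the adapter DAP12 and amplifies other inflammatory signals, and the lectins Mincle (Clec4e) and MCL (Clec4d) signal through the Fc receptor gamma chain and CARD9. CD11b, the product of Itgam, pairs with CD18 to form the integrin Mac-1, which monocytes, macrophages and some dendritic cells carry too. Monocytes and macrophages also express several of the other receptors.

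On 1 probe set of the D6 gene (Ccbp2) the D6-deficient arrays lay between 3.30 and 3.86 and the WT arrays between 4.15 and 5.76, with a log2 difference of -1.41 and an adjusted p of 1.3e-08 over all days. Its other probe sets differed by -0.69 and by -0.07, the last with an adjusted p of 0.80. Among the arrays, WT day 2 replicate 2 stood apart for the genes described here. It was the highest of its group on 10 of the 11 probe sets, by a median of 1.49 above the mean of the other WT arrays of day 2, and on 8 of 8 neutrophil markers (Ngp, for example, at 6.91 against 4.84 and 5.52). For the genes described here that were called between the genotypes on day 2, that difference is given with and without it on the brightest probe set. Other results, those of the gene lists among them, use all arrays unless stated.

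The promoters of the 5 genes with the largest differences between genotypes on day 2 are shown because these genes moved together over the groups. They are the windows from 250 bases before to 50 bases after the start site in RefSeq, build GRCm38.p6, and capitals mark matches on either strand to TTNNGNAA, a C/EBP-like motif, or, in Trem1 at -109, to AGGAAGT, a PU.1-like motif.
Fpr1, chr17:17883890-17884189, minus strand: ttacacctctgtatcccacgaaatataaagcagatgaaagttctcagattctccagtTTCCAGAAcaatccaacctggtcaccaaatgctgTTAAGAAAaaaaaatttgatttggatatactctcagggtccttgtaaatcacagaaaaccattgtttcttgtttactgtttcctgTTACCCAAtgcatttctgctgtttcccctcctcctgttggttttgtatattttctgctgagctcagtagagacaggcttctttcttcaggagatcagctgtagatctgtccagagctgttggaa
Fpr2, chr17:17887574-17887873, plus strand: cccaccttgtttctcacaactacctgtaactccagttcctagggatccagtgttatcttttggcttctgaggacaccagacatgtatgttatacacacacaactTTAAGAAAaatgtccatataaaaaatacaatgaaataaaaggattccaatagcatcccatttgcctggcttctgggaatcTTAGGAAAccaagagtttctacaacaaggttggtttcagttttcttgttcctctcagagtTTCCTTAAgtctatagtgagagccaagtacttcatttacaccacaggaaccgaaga
Clec4e, chr6:123289822-123290121, minus strand: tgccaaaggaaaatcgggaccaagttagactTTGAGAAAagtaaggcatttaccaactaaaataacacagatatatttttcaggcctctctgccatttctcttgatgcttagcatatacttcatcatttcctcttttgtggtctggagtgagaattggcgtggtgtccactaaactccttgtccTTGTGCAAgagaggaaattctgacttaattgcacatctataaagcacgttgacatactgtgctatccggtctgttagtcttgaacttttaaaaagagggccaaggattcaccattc
Clec4d, chr6:123261857-123262156, plus strand: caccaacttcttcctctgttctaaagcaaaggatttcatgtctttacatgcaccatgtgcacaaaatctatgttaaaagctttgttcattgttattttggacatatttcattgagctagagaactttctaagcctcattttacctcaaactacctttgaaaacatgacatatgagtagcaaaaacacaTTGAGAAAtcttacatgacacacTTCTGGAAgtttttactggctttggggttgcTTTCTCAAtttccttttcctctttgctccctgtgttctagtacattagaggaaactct
Trem1, chr17:48232489-48232788, plus strand: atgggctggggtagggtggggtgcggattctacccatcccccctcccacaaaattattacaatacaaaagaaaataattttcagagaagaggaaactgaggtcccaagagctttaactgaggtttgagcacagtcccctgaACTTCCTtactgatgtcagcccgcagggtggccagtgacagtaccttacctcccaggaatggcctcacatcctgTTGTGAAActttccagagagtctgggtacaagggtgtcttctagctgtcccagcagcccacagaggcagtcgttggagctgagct

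Windows were given for 8 of the 9 genes, all but Csf3. The C/EBP-like letters were in 6 of the 8, the 5 shown and Itgam, and in 40.7% of the 32851 promoter windows of the same length. Fpr1 and Fpr2, whose windows face away from each other on chromosome 17, held 3 matches each, Clec4d 3, Clec4e and Itgam 2 and Trem1 1. In Clec4d the matches began at -62, -39 and -8 and in Fpr2 at -146, -66 and -6 relative to the start site. The PU.1-like letters were in 1 of the 8 windows, that of Trem1, against 9.4% of all windows. No window of the 8 held GGANTTTCC (NF-kB-like, 1.3% of all) or TGANTCA (AP-1-like, 7.8%). The windows of Cxcr2 and Csf3r held none of the 4 motifs. These matches describe letters and were not tested.

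All 9 genes had their highest mean on day 4 in both genotypes. In WT mice 11 of 11 probe sets rose from day 0 to day 4, where 1.76% of all tested probe sets rose. In D6-deficient mice 11 of 11 rose as well, against 1.97% of all. The genotypes differed in when the increase came. By day 2, 2 of 11 probe sets had risen in WT mice (the brighter one of Clec4e, and Clec4d; 1.20% of all rose) and 9 of 11 in D6-deficient mice (1.70% of all), all but Csf3 and Itgam. The median change on day 2 was 1.02 on the log2 scale in WT mice, where the median of all tested probe sets was 0.00. Without WT day 2 replicate 2 the same count of 2 was called, and changes from day 0 lay between -0.18 and 2.33.

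**Figure D1:**
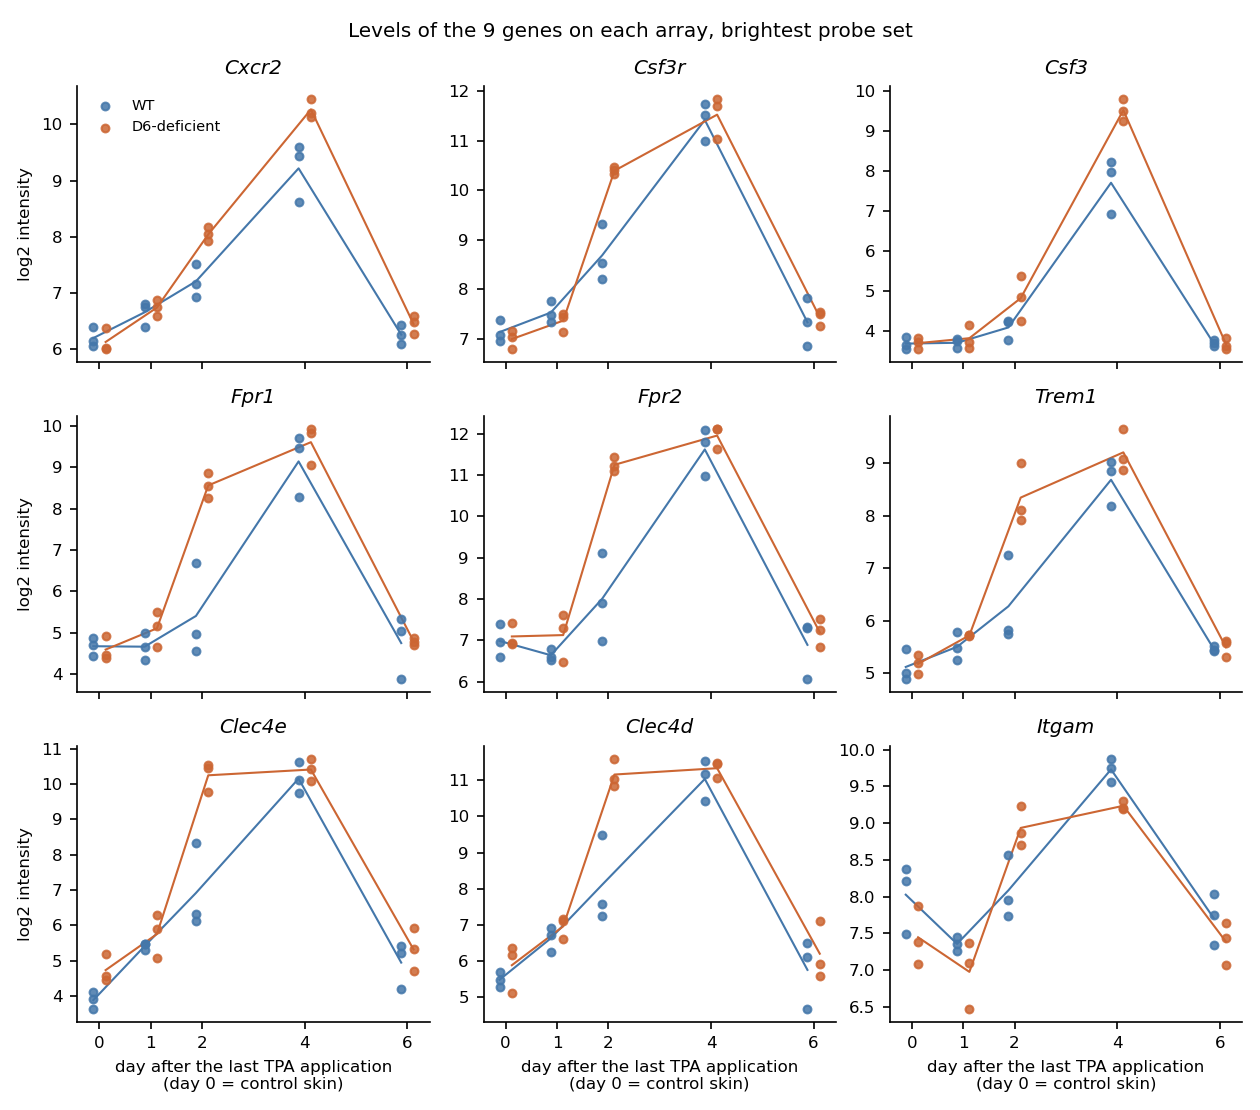
Log2 intensity of the brightest probe set of each gene (vertical axis, a scale of its own in each panel) by day after the last TPA application (horizontal axis). Points are single arrays, 3 a group, and lines join the means of WT (blue) and D6-deficient mice (orange), shifted sideways for legibility. On day 2 all D6-deficient arrays lie above all WT arrays for every gene but Csf3. The means are then furthest apart for the formyl peptide receptors, Trem1 and the lectins. On day 4 all D6-deficient arrays lie above all WT arrays for Cxcr2 and Csf3. The share of all tested probe sets parted in this way was not computed for either day.

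On day 1, limma called 0 of 11 probe sets in WT mice (1.77% of all in either direction) and 0 of 11 in D6-deficient mice (2.49%). At an unadjusted p under 0.05 there were 4 and 3, and the methods' t-test called 0 in each. The brighter Clec4e probe set came nearest in WT mice, at a 2.88-fold higher level (adjusted p = 0.012 by limma). In D6-deficient mice only Cxcr2 had an adjusted p under 0.05, with a log2 difference of 0.61 (adjusted p = 0.015 by limma). On day 6 the counts against day 0 were again 0 of 11 in WT mice (1.34% of all) and 0 of 11 in D6-deficient mice (2.13%), with 1 and 0 at an unadjusted p under 0.05 and 0 by the methods' t-test. Leaving out WT day 0 replicate 1 brought the WT count on day 1 to 1.

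Between the genotypes, on day 2, 8 of 11 probe sets of 6 genes were called, all higher in D6-deficient mice, where 0.411% of all probe sets were called higher. They were those of Csf3r, Fpr1, Fpr2, Trem1, Clec4e and Clec4d, and all 11 probe sets were higher in D6-deficient mice, with a median log2 difference of 2.51 against -0.02 for all tested probe sets. Taken relative to day 0 of each genotype, 8 of 11 were called on day 2 (0.555% of all). Without WT day 2 replicate 2 the counts were 8 for the same-day comparison and 9 relative to day 0, with Itgam added. The methods' t-test on the same values called 8 on day 2 at an unadjusted p under 0.05 and 0 after Benjamini-Hochberg adjustment, and relative to day 0 it called 9 and 0. The hybridization control probe sets separated the arrays into sets of 13 and 17. Within the first set the 8 differences lay between 1.86 and 4.16 and within the second between 1.39 and 3.15, with 1 or 2 arrays of a group in each.

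On day 4, 1 of 11 was called between the genotypes, Csf3, where 0.0333% of all were called higher, and 1 of 11 relative to day 0 (0.0500% of all). On day 0, limma called 0 of 11 (0.122% of all in either direction), on day 1 0 of 11 (0.0139%) and on day 6 0 of 11 (0.0167%), with 1, 0 and 0 at an unadjusted p under 0.05. Relative to day 0, 0 of 11 were called on day 1 (0.00278%) and on day 6 (0.00278%), with 0 at an unadjusted p under 0.05 on both days. The methods' t-test called 0 in each of these comparisons.

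**Figure D2:**
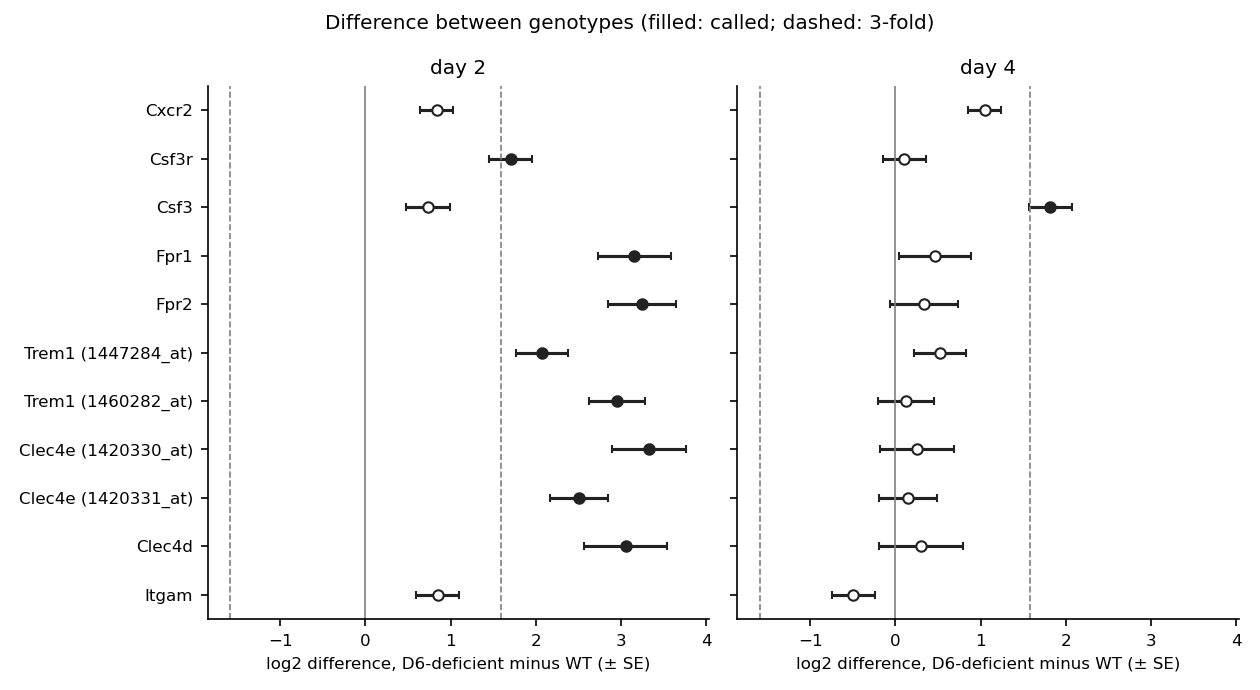
Log2 difference between D6-deficient and WT mice on day 2 (left) and day 4 (right) for the 11 probe sets, with the standard error of the limma fit. Filled points were called, and dashed lines mark 3-fold. On day 2 the 8 filled points run from 1.71 (Csf3r) to 3.33 (Clec4e), and on day 4 only Csf3 is filled, at 1.82.

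The formyl peptide receptors were called between the genotypes on day 2 and not on day 4. Fpr1 was at 4.96, 6.68 and 4.57 on the WT arrays of day 2 and at 8.27, 8.85 and 8.56 on the D6-deficient arrays. On day 4 it was at 9.45, 8.27 and 9.70 in WT and at 9.05, 9.93 and 9.83 in D6-deficient mice. The genotypes did not overlap on day 2 and did on day 4, and WT day 2 replicate 2 lay between the other WT arrays and the D6-deficient arrays. The day 2 difference was 8.91-fold (log2 3.16, SE 0.42, n = 3 per group, adjusted p = 3.4e-05 by limma), and 3.79 on the log2 scale without that replicate. Against day 0, Fpr1 on day 2 was 15.7-fold higher in D6-deficient mice, and in WT mice 1.66-fold (log2 0.73, adjusted p = 0.22, and 0.09 without that replicate).

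Fpr2, which also binds lipid mediators and host peptides, was at 7.91, 9.12 and 6.99 in WT and at 11.09, 11.45 and 11.21 in D6-deficient mice on day 2. On day 4 the levels were 11.80, 10.97 and 12.09 in WT and 11.63, 12.13 and 12.11 in D6-deficient mice. The D6-deficient arrays of day 2 thus stood within the range of the WT arrays of day 4. The genotypes differed 9.46-fold on day 2 (log2 3.24, SE 0.40, n = 3 per group, adjusted p = 1e-05 by limma; 3.80 without WT day 2 replicate 2) and 1.26-fold on day 4 (adjusted p = 0.88). Between day 2 and day 4 Fpr2 rose 12.3-fold in WT mice, while in D6-deficient mice the difference of 1.63-fold was not called (adjusted p = 0.26).

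No measured relative of these receptors was called on day 2, but their levels were low. Group means of Fpr3, Fpr-rs3 and Fpr-rs4 lay between 3.52 and 4.42, where the lowest mean kept was 3.72. Whether they were above background was not measured, so the lack of a call says little about them. Of 7 genes of the formyl peptide receptor family and its ligands, 5 were measured and 1 was called between the genotypes on day 2, Camp, the precursor of a cathelicidin peptide, with a log2 difference of 3.28 (SE 0.60). Camp is also among the neutrophil markers used here. Fpr3 differed by -0.15, Fpr-rs4 by 0.16 and Fpr-rs3 by -0.12, and Anxa1, which encodes a ligand of FPR2, had a difference of -0.06. These 4 had adjusted p values from 0.71 upward. The median of the 5 was -0.06 against -0.02 for all tested probe sets.

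On the brightest probe sets, the lectins were the only genes of the 9 that had risen more than 3-fold by day 2 in WT mice. Csf3r was just short of 3-fold, at 1.55 on the log2 scale. On that day Clec4e was at 6.32, 8.32 and 6.11 in WT and at 10.53, 10.44 and 9.77 in D6-deficient mice. On day 4 it was at 10.10, 9.74 and 10.62 in WT and at 10.09, 10.72 and 10.42 in D6-deficient mice. The D6-deficient arrays had therefore reached on day 2 the levels that both genotypes showed on day 4, and the difference of 1.12-fold between these days was not called (adjusted p = 0.86 by limma). In WT mice Clec4e rose 8.17-fold by day 2 (log2 3.03, adjusted p = 1.6e-05 by limma), or by 2.33 on the log2 scale without WT day 2 replicate 2, and 76.9-fold by day 4. Its WT mean on day 0 was 3.89, near the lowest mean kept of 3.72. Whether so low a level was above background was not measured here, so folds from it are read as lower bounds. The genotypes differed on day 2 by 3.33 on the log2 scale (SE 0.43, n = 3 per group, adjusted p = 2.2e-05 by limma), and the difference was 4.03 on the log2 scale without WT day 2 replicate 2.

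On day 0 the D6-deficient arrays of Clec4e, at 4.57, 4.45 and 5.19, already lay above the WT arrays, at 4.11, 3.63 and 3.92. That difference of 1.80-fold was not called (adjusted p = 0.39 by limma). Relative to day 0 the day 2 difference was 2.48 on the log2 scale (adjusted p = 0.016 by limma), and without WT day 2 replicate 1 or replicate 3 it was 2.18 or 2.07 with an adjusted p of 0.061 or 0.054. The dimmer probe set of Clec4e gave smaller changes, 12.7-fold by day 4 in WT mice and 5.69-fold between the genotypes on day 2. Its change from day 0 to day 2 in WT mice, 0.92 on the log2 scale, was not called, and was 0.36 without WT day 2 replicate 2. It was between 3.51 and 4.03 on the WT arrays of day 0, near the lowest mean kept too.

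Clec4d, the neighbour and partner of Clec4e, was at 7.58, 9.49 and 7.25 in WT and at 11.02, 11.60 and 10.85 in D6-deficient mice on day 2. On day 4 the levels were 11.16, 10.42 and 11.52 in WT and 11.05, 11.49 and 11.46 in D6-deficient mice. The groups were apart on day 2 and overlapped on day 4. The day 2 difference was 8.30-fold (log2 3.05, SE 0.49, n = 3 per group, adjusted p = 0.00032 by limma), and 3.74 on the log2 scale without WT day 2 replicate 2. Relative to day 0 it was 2.65 on the log2 scale (adjusted p = 0.023 by limma), and this call was lost when any of 5 arrays was left out. Those were D6-deficient day 0 replicate 2 (2.26), D6-deficient day 2 replicate 2 (2.43), WT day 0 replicate 1 (2.55) and WT day 2 replicates 1 (2.39) and 3 (2.22), with adjusted p values up to 0.075.

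The list of other C-type lectin receptors held 7 receptors and Sap130, which encodes a nuclear protein that Mincle binds. Of these 8 genes 7 were measured, with Clec4a2 and Clec4b1 on the same probe set, and 1 was called between the genotypes on day 2. That was Clec5a, a DAP12-coupled receptor of myeloid cells, with a log2 difference of 1.79 (SE 0.29, adjusted p = 0.00032 by limma). Clec7a, which encodes Dectin-1, differed by 1.44 (adjusted p = 2.8e-05) and Clec4n, which encodes Dectin-2, by 1.07 (adjusted p = 0.00042), both under 3-fold. Clec4a3 differed by 0.53 (adjusted p = 0.21) and Sap130 by 0.00. Of the 7, 4 had risen by day 2 in D6-deficient mice and 1, Clec4n, in WT mice, and by day 4 the count was 3 in each genotype.

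Trem1 was at 5.75, 7.24 and 5.82 in WT and at 8.10, 9.01 and 7.92 in D6-deficient mice on day 2. On day 4 it was at 8.84, 8.19 and 9.01 in WT and at 9.66, 9.08 and 8.87 in D6-deficient mice. No overlap was seen on day 2, and on day 4 the groups overlapped. The day 2 difference was 4.20-fold on this brighter probe set (log2 2.07, SE 0.31, n = 3 per group, adjusted p = 0.00012 by limma) and 7.72-fold on the other. Without WT day 2 replicate 2 the log2 differences were 2.56 and 3.44. The second probe set was at 4.01, 5.61 and 4.24 in WT and at 7.57, 8.08 and 7.06 in D6-deficient mice on day 2, so both probe sets placed every D6-deficient array above every WT array.

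In the TREM family 6 of 6 listed genes were measured, and 1 was called between the genotypes on day 2. That was Trem3, a close relative of Trem1 in mice, with a log2 difference of 2.32 (SE 0.30, adjusted p = 2e-05 by limma). Treml4 differed by 1.27 (adjusted p = 0.00013) and Trem2, a receptor of macrophages, by 0.82 (adjusted p = 0.014), both under 3-fold. Treml2 differed by 0.54 (adjusted p = 0.13). Pglyrp1, which encodes a granule protein that binds TREM-1, rose by day 2 in both genotypes, by 3.10 in WT and 3.30 in D6-deficient mice on the log2 scale, with a difference of 0.46 between them (adjusted p = 0.56). Its WT arrays of day 2 were spread from 9.30 to 10.70, around the D6-deficient arrays at 10.13 to 10.48.

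For the adapters and kinases below these receptors the differences were smaller. Of 10 genes of the ITAM adapter and CARD9 list, 8 were measured and 0 were called between the genotypes on day 2 by limma (5 at an unadjusted p under 0.05), with a median difference of 0.54. Fcer1g, which encodes the gamma chain used by both lectins, differed by 0.85 (adjusted p = 0.0014), the kinase gene Fgr by 0.85 (adjusted p = 0.0054) and Tyrobp, which encodes DAP12, by 0.65 (adjusted p = 0.0095), all under 3-fold. From day 0 to day 2, Tyrobp, Fcer1g and Fgr rose in D6-deficient mice, and 0 of the 8 rose in WT mice by limma (6 at an unadjusted p under 0.05).

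In D6-deficient mice the G-CSF receptor had risen more than 3-fold by day 2 and its ligand Csf3 by day 4. On day 2 Csf3 was already 1.13 above day 0 on the log2 scale, with an adjusted p under 0.05 by limma but short of 3-fold. With a day 0 mean below the lowest mean kept, that change is read as a lower bound. Csf3r was at 8.53, 9.33 and 8.20 in WT and at 10.32, 10.46 and 10.40 in D6-deficient mice on day 2. Day 4 levels were 11.51, 10.99 and 11.74 in WT and 11.03, 11.69 and 11.85 in D6-deficient mice. The groups did not overlap on day 2 and did on day 4. The day 2 difference was 3.26-fold (log2 1.71, SE 0.25, n = 3 per group, adjusted p = 0.00012 by limma). It stayed above 3-fold without WT day 2 replicate 2 (2.03 on the log2 scale) but not without WT day 2 replicate 3 (1.46). By day 4 Csf3r had risen 19.4-fold in WT and 23.0-fold in D6-deficient mice.

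Csf3 was at 3.76, 4.22 and 4.25 in WT and at 4.84, 5.36 and 4.23 in D6-deficient mice on day 2, and the groups overlapped. Its difference of 1.66-fold was not called (adjusted p = 0.12 by limma). On day 4 it was at 7.96, 6.92 and 8.21 in WT and at 9.81, 9.51 and 9.24 in D6-deficient mice, so that every D6-deficient array lay above every WT array. Csf3 rose 16.3-fold from day 0 in WT and 57.0-fold in D6-deficient mice, folds read as lower bounds, since its day 0 means of 3.67 and 3.68 were below the lowest mean kept of 3.72. The genotypes differed 3.52-fold on day 4 (log2 1.82, SE 0.26, n = 3 per group, adjusted p = 5e-04 by limma). Without WT day 4 replicate 2, the lowest, the log2 difference was 1.43 and no longer above 3-fold, and in a fit to the 6 arrays of that day alone the adjusted p was 0.089. Within the sets of arrays given by the hybridization controls it was 2.45 and 1.72.

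Taken relative to day 0, the Csf3 difference on day 4 was 1.81 on the log2 scale (SE 0.36, adjusted p = 0.021 by limma). It was no longer called when any of 5 arrays was left out. These were D6-deficient day 0 replicates 1 (1.82) and 3 (1.73), D6-deficient day 4 replicate 1 (1.66), WT day 0 replicate 1 (1.72) and WT day 4 replicate 2 (1.42), with adjusted p values up to 0.067. On day 6 Csf3 was at 3.68, 3.75 and 3.61 in WT and at 3.54, 3.82 and 3.61 in D6-deficient mice, back among the values of day 0.

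Of 19 genes of the list on G-CSF and other myeloid growth factors, 18 were measured and 0 were called between the genotypes on day 2 by limma (8 at an unadjusted p under 0.05), with a median difference of 0.14. The largest differences were those of Lyn, a Src family kinase, at 0.75 (adjusted p = 0.0016), Csf2rb2 at 0.53 (adjusted p = 0.072), Spi1, which encodes PU.1, at 0.53 (adjusted p = 0.074) and Csf2 at 0.51 (adjusted p = 0.12). On day 4, 1 of 18 rose in each genotype, Socs3, a feedback inhibitor of the G-CSF receptor, by 2.19 in WT and 2.28 in D6-deficient mice on the log2 scale.

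**Figure D3:**
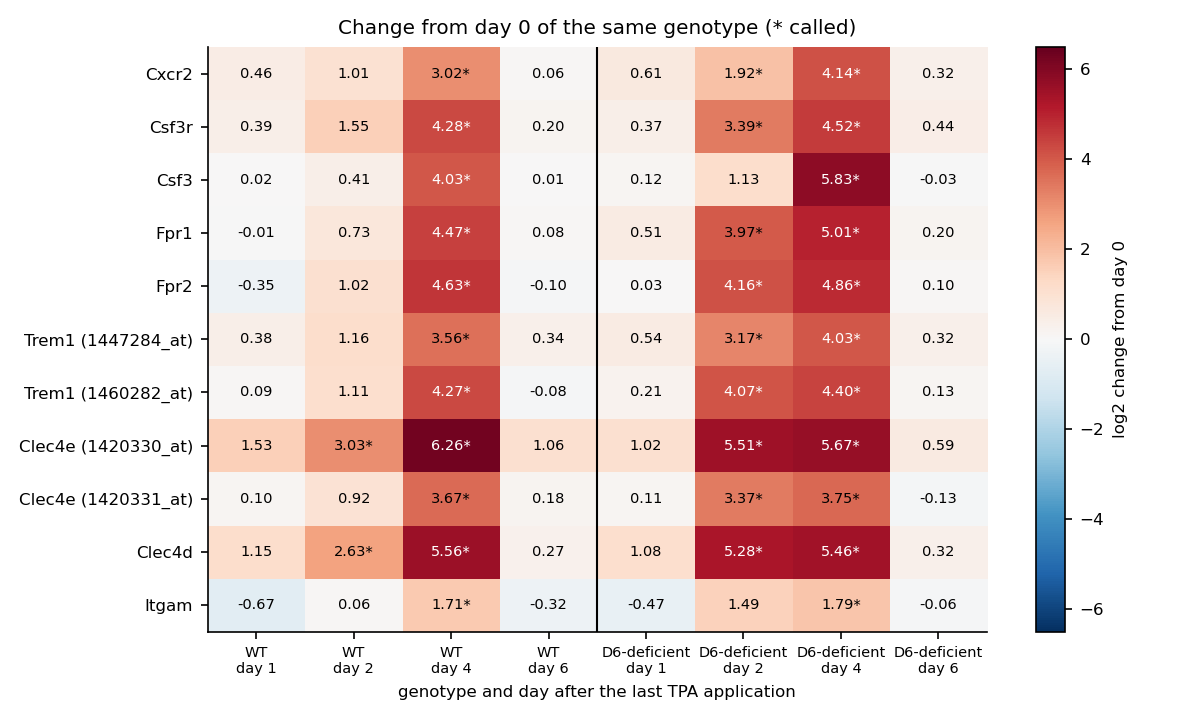
Log2 change from day 0 of the same genotype for the 11 probe sets (rows) on each day in WT (left) and D6-deficient mice (right). Colour and number give the change, and a star marks a called one. In WT mice the stars fill the column of day 4 and 2 cells of day 2, in D6-deficient mice the column of day 4 and 9 cells of day 2, and no cell of days 1 and 6 has one.

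Cxcr2 was higher in D6-deficient mice on days 2 and 4, short of 3-fold on both. On day 2 it was at 7.17, 7.52 and 6.93 in WT and at 8.17, 8.04 and 7.92 in D6-deficient mice. Day 4 levels were 9.44, 8.63 and 9.59 in WT and 10.20, 10.46 and 10.13 in D6-deficient mice. On both days every D6-deficient array was above every WT array. The differences of 1.78-fold on day 2 (adjusted p = 0.0098 by limma) and 2.07-fold on day 4 (adjusted p = 0.0079 by limma) were under 3-fold and so were not called. With day 0 taken off they had adjusted p values of 0.051 and 0.055. From day 2 to day 4 Cxcr2 rose in both genotypes, 4.03-fold in WT and 4.67-fold in D6-deficient mice.

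The ligands of CXCR2 did not all share one course. Of 7 genes of the ligand list with Cxcr1, 6 were measured and 3 were called between the genotypes on day 2, all higher in D6-deficient mice, with a median of 1.89. Cxcl3 differed by 4.44 on the log2 scale (SE 0.53), Cxcl2 by 3.74 (SE 0.66) and Cxcl5 by 2.81 (SE 0.37). Ppbp differed by 0.96 (adjusted p = 0.038 by limma), under 3-fold. Cxcl2 was between 6.84 and 10.5 on the WT arrays and between 11.6 and 12.3 on the D6-deficient arrays of day 2. In WT mice it was already 4.90 above day 0 (adjusted p = 7e-06 by limma). With a WT day 0 mean of 3.35 that change is again read as a lower bound. Its day 0 mean was 4.59 in D6-deficient mice. Relative to day 0, Cxcl2 differed by 2.50 on day 2 and was not called (adjusted p = 0.13 by limma). Cxcl3 (4.17) and Cxcl5 (2.58) were called in that comparison. On day 4, 5 of 6 rose in each genotype, all but Cxcl15, and 0 of 6 were called between the genotypes by limma (3 at an unadjusted p under 0.05).

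**Figure D4:**
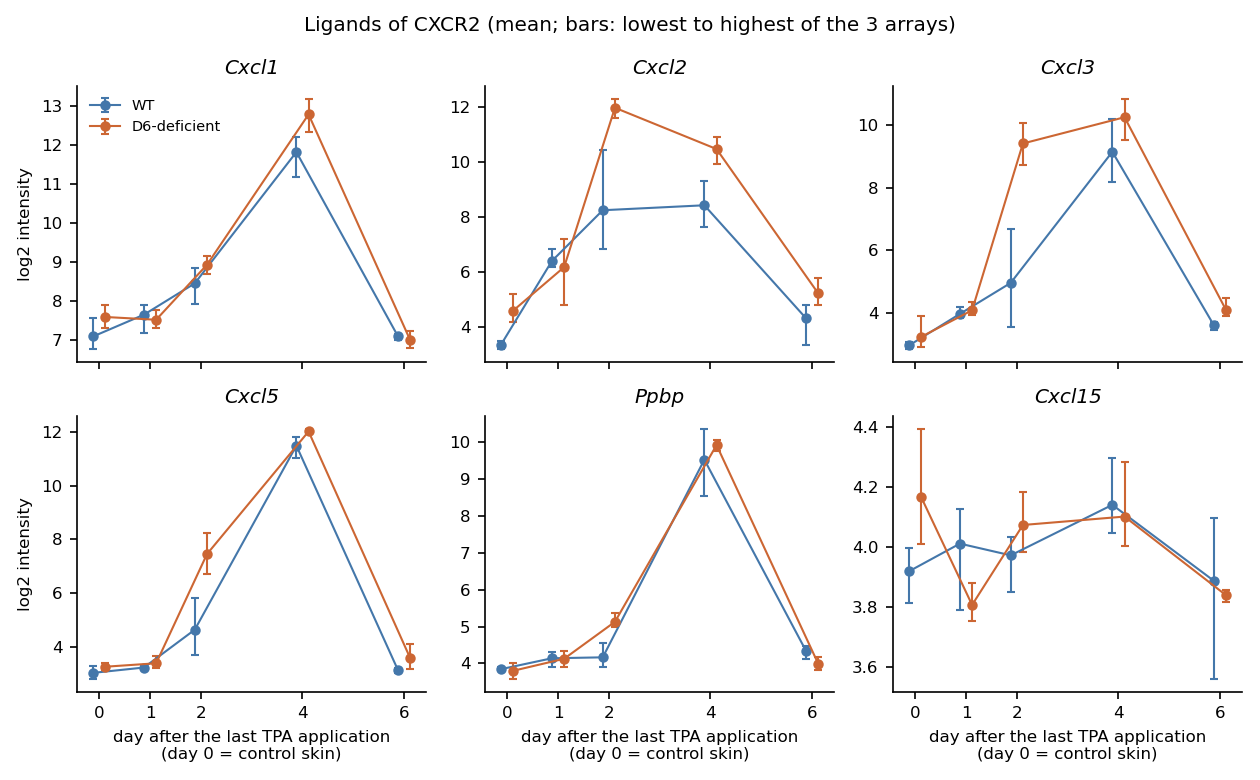
Log2 intensity of the 6 measured CXCR2 ligands (brightest probe set, vertical axis) by day after the last TPA application (horizontal axis). Points are group means of WT (blue) and D6-deficient mice (orange) and bars run from the lowest to the highest of the 3 arrays. On day 2 the bars of Cxcl2, Cxcl3, Cxcl5 and Ppbp are apart between the genotypes, whereas those of Cxcl1 and Cxcl15 overlap.

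Itgam had the smallest rise of the 9 genes from day 0 to day 4 in both genotypes. It was at 8.37, 8.22 and 7.49 in WT and at 7.08, 7.87 and 7.39 in D6-deficient mice on day 0. On day 2 it was at 7.96, 8.56 and 7.74 in WT and at 9.23, 8.87 and 8.70 in D6-deficient mice, and on day 4 at 9.75, 9.56 and 9.88 in WT and at 9.21, 9.30 and 9.20 in D6-deficient mice. The D6-deficient arrays thus lay above the WT arrays on day 2 and below them on day 4. Neither difference was called, with 1.80-fold on day 2 (adjusted p = 0.055 by limma) and -0.50 on the log2 scale on day 4 (adjusted p = 0.54 by limma). Relative to day 0 the day 2 difference was 2.69-fold (adjusted p = 0.018 by limma), and without WT day 2 replicate 2 it was 1.67 on the log2 scale and was called.

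By day 4 Itgam had risen 3.26-fold in WT and 3.46-fold in D6-deficient mice. Without WT day 0 replicate 3 the WT change was 1.44 on the log2 scale, under 3-fold. Of the 9 listed beta-2 integrin and ligand genes, 8 were measured, with a median log2 difference between the genotypes on day 2 of 0.59. Itgb2, which encodes CD18, the partner of CD11b, differed by 0.76 (adjusted p = 0.0090), Itgal by 0.69 (adjusted p = 0.016) and Icam2, a ligand on endothelium, by 0.62 (adjusted p = 0.034), all under 3-fold.

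From day 2 to day 4, 11 of 11 probe sets rose in WT mice (0.683% of all rose), by 3.13-fold for Itgam to 13.3-fold for Fpr1. The Itgam call was lost without WT day 2 replicate 1 (1.58 on the log2 scale), WT day 2 replicate 3 (1.47) or WT day 4 replicate 3 (1.57). In D6-deficient mice 2 of 11 rose over these days (0.522% of all), Cxcr2 4.67-fold and Csf3 26.1-fold. Csf3r was 2.19-fold higher on day 4 than on day 2 (adjusted p = 0.0027 by limma) without reaching 3-fold, and the other 8 probe sets had adjusted p values from 0.056 upward. From day 4 to day 6, 11 of 11 fell in WT mice (1.10% of all fell), between 4.07-fold for Itgam and 39.1-fold for Clec4d. In D6-deficient mice 11 of 11 fell as well (1.56% of all), between 3.61-fold for Itgam and 58.1-fold for Csf3, the last down to a level below the lowest mean kept and so read as a lower bound.

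Of 10 listed neutrophil markers, 8 were measured and 5 were called between the genotypes on day 2, all higher in D6-deficient mice: Ngp (log2 difference 4.82), Ltf (3.82), Camp (3.28), Mmp8 (3.14) and Mmp9 (1.97). S100a8 and S100a9, which keratinocytes also express, differed by 0.10 each, and Lrg1 by 0.78 (adjusted p = 0.32 by limma). The mean log2 level of the 8 markers, computed after the single genes had been seen, ran from 8.53 to 9.35 on the WT arrays and from 10.29 to 11.68 on the D6-deficient arrays of day 2, and on day 4 from 9.97 to 10.86 and from 10.48 to 11.40. The summed level ran from 15.28 to 15.75 in WT and from 15.73 to 15.88 in D6-deficient mice on day 2, but S100a8 and S100a9 made up 74.1% to 94.4% of that sum on the arrays of days 2 and 4. On day 0, 1 of the 8 was called higher in D6-deficient mice, S100a8 by 2.41 (adjusted p = 0.035 by limma). The markers did not all share the course of the 9 genes. In D6-deficient mice Camp rose by day 1 (log2 2.25) and fell from day 2 to day 4 (-1.97). Means of Ngp and Ltf were also lower on day 4 than on day 2 there, and those of the other measured markers higher. The part of neutrophil numbers in the receptor differences was not tested.

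Of 8 macrophage and monocyte markers 0 were called by limma between the genotypes on day 2 (2 at an unadjusted p under 0.05), with a median difference of 0.16. Their summed level ran from 14.39 to 14.50 in WT and from 14.65 to 14.76 in D6-deficient mice, and on day 4 from 14.76 to 14.95 and from 14.54 to 14.64. The pan-leukocyte marker Ptprc differed by 0.49 on day 2 (adjusted p = 0.052 by limma). None of the 6 mast cell, 6 T cell, 6 keratinocyte, 6 skeletal muscle or 4 adipocyte markers measured was called on day 2 by limma, with 1, 2, 0, 5 and 0 at an unadjusted p under 0.05. Of 5 eosinophil markers tested 2 were called lower in D6-deficient mice on day 2 (Ear1 and Ear2), and the list did not move together. Prg2 differed the other way, by 1.34 (adjusted p = 0.06 by limma), and Siglecf (-0.76) and Ccr3 (-0.66) were not called. Of 7 Langerhans and dendritic cell markers 2 were lower on day 2 (Cd207 and Cd209a). Cd209a was lower on day 0 already, with a mean of 6.61 in D6-deficient and 9.32 in WT mice.

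Over the 10 group means the 9 genes ran closely together, with Pearson r between 0.821 and 0.996 for their 36 pairs and a median of 0.962. The points share the arrays of each group, and r is given as a description. The genes whose group means were most like each member's were found among all tested probe sets with 1 gene symbol. For Clec4e and Clec4d these were each other (r = 0.996), Tpd52 and Ctla2a. For Fpr1 they were Olfm4 (0.999), Cd177 and Trem3 (0.997 each), and Olfm4 and Cd177 are known from subsets of neutrophils. For Fpr2 they were B430306N03Rik, Trem1 (0.997 each) and Clec4e (0.995), and for Trem1 Vav1 (0.997), Pram1 and Skap2 (0.996 each).

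For Csf3r the most similar were Pilrb1 (0.997), Ifitm1 and Nfe2 (0.995 each). For Cxcr2 they were its ligand Cxcl1, on a probe set other than the brightest (0.994), Selplg (0.990) and Treml2 (0.989). For Itgam they were Fes (0.981), Apob48r (0.980) and Sfpi1, the older symbol of the PU.1 gene (0.979). For Csf3 they were Sod2 (0.993), Nrg1 (0.992) and Saa4 (0.990).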

How the data were processed

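Total RNA of whole back skin had been hybridized to Affymetrix Mouse Genome 430 2.0 arrays. The authors summarized the probes by RMA in GeneSpring GX and deposited linear intensity values per probe set without the base-line transformation, and no version of these tools is given in the sources used here. RMA equalizes the distributions of the arrays, so a shift shared by all genes would not be seen. The log2 of the deposited intensity was taken with no further scaling, and array medians lay between 5.64 and 5.80. No depth exists for arrays, and their number limits the precision.

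After 64 control probe sets and the 20% with the lowest mean were left out, 36029 probe sets were fitted with limma 3.58.1 in R 4.3.3 (lmFit and eBayes, 1 mean for each of the 10 groups, all 30 arrays). Benjamini-Hochberg adjustment ran over all tested probe sets of a comparison, and a call needed an adjusted p under 0.05 and more than 3-fold. Shares of all tested probe sets are given for calls by limma only. Counts at an unadjusted p, by the t-test or with no fold threshold have none beside them. Comparisons were each day with day 0, the genotypes on each day, the same relative to day 0, and day 2 with day 4 and day 4 with day 6. The methods name unpaired t tests, which were run as an alternative. Simulated arrays held 200 changed probe sets among 36029. Between the genotypes, log2 changes of 2 were recovered in 100% for day 2 and 99% for day 4. Smaller changes were not simulated, so these shares do not cover calls closer to 3-fold.

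The members and lists were chosen with earlier results of these data known. Named genes were every probe set of the 9 members, with the brightest first, and up to 4 genes of each pathway list with the largest difference between the genotypes on day 2. Other list members are named where a count needed it. Single results of some list genes, and the counts that turn on them, are not reported here. Likeness was Pearson r over the 10 group means, with the 3 highest genes named. Genes of a list were represented by their brightest probe set. Alternatives were median centring, no filter, no fold threshold, the methods' t-test, only the arrays of the comparison, the replicate number as a block, the hybridization control sets as a covariate, the mean of a gene's probe sets, a mean-variance trend and leaving out each array. With 3 arrays a group, exact permutation p-values are at least 0.1. Promoter windows came from RefSeq (GRCm38.p6). Figures were drawn with Python 3.11.15 and matplotlib 3.10.9. The second deposited text is a sample sheet and was not used for values.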

Additional observations from a re-analysis of the deposited data

Results flagged for a closer look

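Changes from day 0 that differed between the genotypes, by the interaction term of the limma fit, were found for 9 probe sets, each with 3 arrays per group. On day 2 the change from day 0 was larger in D6-deficient than in WT mice by 3.24 on the log2 scale for Fpr1 (SE 0.60, adjusted p = 0.0017), by 3.14 for Fpr2 (SE 0.57, adjusted p = 0.0014), by 1.85 for Csf3r (SE 0.36, adjusted p = 0.0025) and by 2.65 for Clec4d (SE 0.69, adjusted p = 0.023). For Trem1 the difference was 2.01 on the brighter probe set and 2.96 on the other, and for Clec4e 2.48 and 2.45. On day 4 it was 1.81 for Csf3 (SE 0.36, adjusted p = 0.021). These comparisons share the day 0 arrays of each genotype. The call of Clec4d was lost without any of 5 arrays, that of Csf3 without any of 5 arrays, not the same ones in both cases, and that of the brighter Clec4e probe set without either of 2.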

How the results depend on the processing

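None of the 70 called differences of single genes changed direction under the alternatives. This does not extend to differences that were not called. The Itgam change in WT mice from day 0 to day 2, for example, was 0.06, and -0.18 without WT day 2 replicate 2. Of 630 values of the called differences of single genes under alternatives other than leaving out an array, 603 kept their direction and their call and 27 kept the direction only, 25 of these under the methods' t-test after Benjamini-Hochberg adjustment. Under that test the counts of called probe sets were 0 for the genotypes on day 2, on day 2 relative to day 0, on day 4 and on day 4 relative to day 0, and 0 for WT mice from day 0 to day 2 and from day 2 to day 4. The same test unadjusted called 8, 9, 1 and 1 between the genotypes. With no fold threshold the counts were 1 in D6-deficient and 1 in WT mice on day 1, 7 in WT mice on day 2 and 2 between the genotypes on day 4. Without a share of all tested probe sets beside them, the counts of these settings are not read as particular to the 9 genes. With only the arrays of the comparison the count on day 4 between the genotypes was 0, and relative to day 0 it was 0 too. With the replicate number as a block the count between the genotypes on day 2 was 8, and the block changed no call. The numbers did not pair the arrays, since same-numbered arrays deviated together with correlations from -0.352 to 0.481 and 12 of 30 were closest to their own number.

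When each array was left out in turn, 444 of 462 values kept their call and 18 kept the direction only. The count between the genotypes on day 4 ranged from 0 to 1 and was 0 without WT day 4 replicate 2. Relative to day 0 it ranged from 0 to 1 and was 0 without D6-deficient day 0 replicate 1 or 3, D6-deficient day 4 replicate 1, WT day 0 replicate 1 or WT day 4 replicate 2. In WT mice on day 1 it ranged from 0 to 1, with 1 without WT day 0 replicate 1. The calls of Clec4d and Clec4e relative to day 0 on day 2 are treated with those genes. Csf3r between the genotypes on day 2 was no longer called without WT day 2 replicate 3 (1.46 on the log2 scale), nor Itgam in WT mice from day 0 to day 4 without WT day 0 replicate 3 (1.44) and from day 2 to day 4 without WT day 2 replicate 1 or 3 or WT day 4 replicate 3 (1.47 to 1.58). Under median centring, no filter, the mean of a gene's probe sets, the hybridization covariate and the mean-variance trend no call of a single gene was lost. The causes of the changes under other settings were not tested.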
